A study of Danio rerio with 45 samples.

Results

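Gene expression in wild-type (WT) zebrafish embryos was compared between 4.5 and 3.3 hours post fertilization (hpf), the interval in which the embryo's own genome takes over from RNA stored in the egg. The comparison uses 6 RNA-seq libraries of the 45 in the series, 3 from 4.5 hpf and 3 from 3.3 hpf, chosen by the stage and treatment in the sample labels. Each library was made from the total RNA of 100 pooled whole embryos of the AB/PS strain, after removal of ribosomal RNA, so transcripts without a poly(A) tail were counted as well. The WT groups are labelled as controls of embryos injected with morpholinos (MO), antisense oligomers, against Rad21 or CTCF. The labels do not say whether WT embryos received an injection. Embryos were staged by eye.

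In the early zebrafish embryo, maternal mRNA and protein run the rapid cleavage divisions while the nuclei are nearly silent. At the midblastula transition the cell cycle lengthens, transcription starts across the genome, and much of the maternal mRNA is removed by deadenylation, partly directed by the microRNA miR-430. The pluripotency factors Pou5f1 (Pou5f3), Nanog and SoxB1 open the first zygotic genes, many of which encode signals and transcription factors that lay out the germ layers. By 4.5 hpf the blastula also has an outer epithelium, the enveloping layer, and a yolk syncytial layer at the border with the yolk.

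Values are FPKM, fragment counts scaled to the length of the transcript and the size of the library, as the authors deposited them. Whether they also carry a scaling between libraries was not tested directly, but they lay close to a scale set by median ratios between libraries, as given below. The 3 libraries of a stage are numbered 0 to 2 in the table and are given here in that order. Their read depth is not recorded in the FPKM table, so counting error cannot be given. Summed FPKM came to 1111850 to 1207930 in the 4.5 hpf libraries and 745451 to 816256 in the 3.3 hpf libraries. The table also lists 92 rows of ERCC spike-in RNAs, synthetic RNAs added to a sample as an external standard. All 35 spike-in RNAs with at least 5 FPKM in every library were higher at 4.5 hpf, with a median log2 difference of 0.52 (range 0.27 to 0.73). The spike-in share of summed FPKM was 4.59% to 4.99% at 4.5 hpf and 4.40% to 5.70% at 3.3 hpf. The labels give neither the amount of spike-in RNA nor the basis on which it was added. A deposited rise of about this size therefore depends on the scale, and the gene lists below are counted on both scales. The log2(FPKM + 1) values correlated across genes at r = 0.96 to 0.975 within a stage and at 0.847 to 0.897 between the stages.

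Of 17348 genes tested, 4398 rose at 4.5 hpf (25.4%) and 3726 fell (21.5%) at a Benjamini-Hochberg adjusted p under 0.05 in limma. The rises reached farther than the falls: 354 genes rose and 5 fell by at least 3 on the log2 scale, where changes are of log2(FPKM + 1). The median log2 change of all genes was 0.030. With the libraries scaled to the spike-in RNAs, the median was -0.31, 2007 genes rose (11.6%) and 5445 fell (31.4%). Rescaled to a sum of 1000000 FPKM per library, 2229 rose (12.8%) and 7108 fell (41%), with a median of -0.35. Rises therefore made up 54.1% of the calls in the deposited values, 26.9% with spike-in scaling, 23.9% after rescaling and 44.9% after quantile normalization. Scaling by the median ratio between libraries gave 4415 rises and 3676 falls, with a median of 0.034, so the deposited values were already close to that scale. All 3726 falls were also called lower with spike-in scaling, and 2003 of the 4398 rises were also called higher. Under the deposited, spike-in, rescaled and quantile scales alike, 1868 genes rose (10.8%) and 3536 fell (20.4%). In whole embryos, a change in the number of cells of a type and a change in RNA per cell cannot be told apart.

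**Figure D1:**
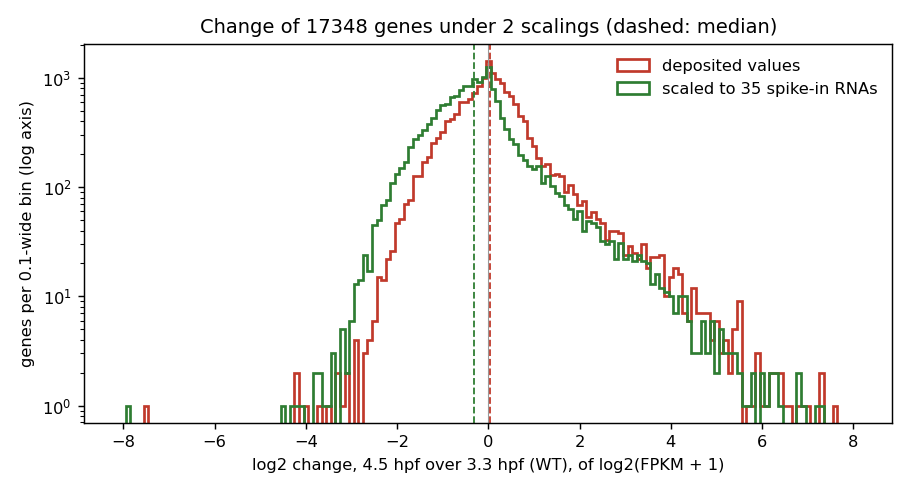
Histogram of the log2 change of 17348 genes, 4.5 hpf over 3.3 hpf in WT, in bins 0.1 wide with genes per bin on a log axis. The red line shows deposited values (median 0.030) and the green line the same libraries scaled to 35 spike-in RNAs (median -0.31), with the long right tail present in both.

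The libraries of 4.5 hpf differed among themselves in genes that change over the WT course. In 5922 genes that rose between the 2.5 and 5.3 hpf libraries, which this contrast does not use, library 1 of 4.5 hpf had the highest value for 61.7% of genes, library 0 for 16% and library 2 for 22.3%. In 5040 genes that fell between those stages, library 1 had the lowest value for 54.2%. Over all genes tested, library 1 was highest for 39.1%. Among the 3.3 hpf libraries the same shares for rising genes lay between 29.1% and 36.5%. Without library 1 of 4.5 hpf, 3814 genes rose and 3177 fell.

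Patterning genes known to be transcribed at or soon after the midblastula transition mostly rose. Of 70 such genes tested, 59 rose and 2 fell, with a median log2 change of 2.25, and with spike-in scaling 54 rose and 3 fell. The T-box factor tbx16 (Zv9 chromosome 8, 54012018 to 54031716), which directs mesoderm formation, had 167, 217 and 181 FPKM at 4.5 hpf and 1.12, 3.10 and 2.51 FPKM at 3.3 hpf (log2 change 5.91, SE 0.19, limma adjusted p = 1.37e-10). The zinc finger gene zic2b (chromosome 1, 28776998 to 28806135) stood at 272, 411 and 333 FPKM against 10.0, 16.9 and 14.0 FPKM (log2 change 4.54, adjusted p = 1.07e-09). For both genes the lowest 4.5 hpf library was far above the highest 3.3 hpf library. The apelin receptor gene aplnra, used by mesendoderm cells in gastrulation, was at 21.3, 30.6 and 24.2 FPKM at 4.5 hpf and at 0.104, 0.299 and 0 FPKM at 3.3 hpf. The SoxC factor sox11a rose by 3.79 on the log2 scale.

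Genes of Nodal signalling and the mesendoderm gave 24 rises and 3 falls among 32 tested (median log2 change 1.92), and 21 rises and 4 falls with spike-in scaling. The Nodal antagonists lft1 and lft2, which are themselves induced by Nodal, rose. For lft1 the libraries held 32.2, 51.2 and 28.3 FPKM at 4.5 hpf and 2.70, 3.98 and 3.88 FPKM at 3.3 hpf (log2 change 3.05, adjusted p = 2.55e-06). The change of lft2 was smaller, at 1.69 (adjusted p = 7.78e-06). The Nodal coreceptor gene oep had 236, 291 and 272 FPKM at 4.5 hpf and was already present at 3.3 hpf, with 55.4, 63.1 and 61.2 FPKM (log2 change 2.13, adjusted p = 1.20e-08). The endoderm regulator gata5 stood at 12.3, 27.7 and 15.04 FPKM at 4.5 hpf and under 0.2 FPKM in all 3.3 hpf libraries (log2 change 4.02).

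Genes on both sides of the dorsoventral system rose. Of 34 BMP and ventral genes tested, 20 rose and 5 fell (median log2 change 0.89), and 17 rose and 6 fell with spike-in scaling. The BMP ligand gene bmp7a (chromosome 11, 7194746 to 7226326) had 37.0, 39.7 and 36.4 FPKM at 4.5 hpf and 0.452, 0.475 and 0.875 FPKM at 3.3 hpf (log2 change 4.60, SE 0.19, adjusted p = 9.36e-10). The organizer gene chd encodes Chordin, a secreted BMP antagonist. It had 41.4, 62.0 and 45.1 FPKM at 4.5 hpf and 1.15, 2.199 and 1.40 FPKM at 3.3 hpf (log2 change 4.29, adjusted p = 1.12e-09). The ventral repressors of organizer genes also rose, vent by 3.75 and vox by 2.48 on the log2 scale. The level of vox was 272, 380 and 367 FPKM at 4.5 hpf and 52.8, 65.9 and 59.6 FPKM at 3.3 hpf. The BMP target id1 had 485, 754 and 742 FPKM at 4.5 hpf, against 45.9, 81.7 and 77.5 FPKM at 3.3 hpf.

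Of 38 FGF and Wnt genes tested, 24 rose and 2 fell, with a median log2 change of 1.07, and 20 rose and 5 fell with spike-in scaling. Among ligands, fgf17 had 36.7, 60.7 and 32.6 FPKM at 4.5 hpf and 0.829, 1.3 and 1.72 FPKM at 3.3 hpf (log2 change 4.25, adjusted p = 8.52e-09). The ligand gene fgf3 was at 10.7, 22.7 and 11.5 FPKM against 0.159, 0.304 and 0.485 FPKM. The Wnt ligand gene wnt11, which acts in convergent extension movements, had 86.3, 154 and 86.7 FPKM at 4.5 hpf and 9.28, 14.2 and 12.9 FPKM at 3.3 hpf. Library 1 of 4.5 hpf was the highest for all 3 ligands. The receptors rose as well, fgfr4 by 3.61 and the Frizzled gene fzd7a by 3.25 on the log2 scale. Neural plate regulators were mixed, with 16 rises and 4 falls among 42 tested (median log2 change 0.16), 14 rises and 6 falls with spike-in scaling (median 0.06), and 12 and 9 after quantile normalization. Over all genes tested, 25.4% rose and 21.5% fell in deposited values, and 11.6% and 31.4% with spike-in scaling. The factor foxd5 rose by 3.22 on the log2 scale. Of 36 hox genes tested, none rose and 1 fell by limma (0 and 2 at an unadjusted p under 0.05, and 0 and 2 with spike-in scaling). Of the 44 hox rows, 39 were under 1 FPKM in all 6 libraries.

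The largest rise among genes eligible for naming was that of stm, which encodes Starmaker, a protein known from the otolith matrix (chromosome 19, 3697799 to 3795238). Its values were 276, 397 and 322 FPKM at 4.5 hpf and 0.210, 1.11 and 1.003 FPKM at 3.3 hpf (log2 change 7.58, SE 0.25, adjusted p = 2.01e-10). Other genes with log2 rises over 5 were ctsll, a cathepsin L like protease gene (6.43), plekhf1 (6.24), the annexin gene anxa1a (6.10), the amino acid transporter subunit gene slc3a2b (5.54) and the adenylate kinase gene ak3 (5.51). In each of these 5 genes, every 3.3 hpf library was under 2.2 FPKM and every 4.5 hpf library over 60 FPKM.

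Genes of the enveloping layer held several of the largest rises. Of 28 tested, 19 rose and 4 fell (median log2 change 1.74), and 16 rose and 5 fell with spike-in scaling. The list as a whole gained little share of summed FPKM, spike-in RNAs left out. It averaged 0.263% at 4.5 hpf, 0.220% at 3.3 hpf and 0.269% at 2.5 hpf. Keratin genes, which form the filaments of this epithelium, led the group. The keratin gene krt4 (chromosome 6, 39239361 to 39243891) had 278, 461 and 286 FPKM at 4.5 hpf and 0.358, 1.99 and 1.51 FPKM at 3.3 hpf. For krt18 (chromosome 23, 10454076 to 10457982) the values were 491, 789 and 567 FPKM against 1.82, 6.54 and 7.03 FPKM (log2 change 6.77, SE 0.33, adjusted p = 3.21e-09). Its partner krt8 (chromosome 23, 10355853 to 10360516) had 319, 479 and 302 FPKM at 4.5 hpf and 4.40, 3.89 and 5.71 FPKM at 3.3 hpf (log2 change 6.0, adjusted p = 2.60e-10). In these keratins and in krt5 (log2 change 5.70), library 1 was the highest of the 4.5 hpf libraries by a wide margin. The tight junction genes cldne and cldnb rose by 5.52 and 5.49 on the log2 scale. The calpain gene capn9 had 18.5, 34.6 and 21.1 FPKM at 4.5 hpf and 0.110, 0.209 and 0.111 FPKM at 3.3 hpf. The envoplakin gene evpla had 22.9, 35.8 and 23.5 FPKM at 4.5 hpf and was listed at 0 in all 3.3 hpf libraries.

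In the yolk syncytial layer, 11 of 20 genes tested rose and none fell, by limma on the deposited and on the spike-in scale alike (11 and 0 at an unadjusted p under 0.05; median log2 change 1.41). Of 22 listed genes, 9 were under 1 FPKM in all 6 libraries. The homeobox gene mxtx1 (chromosome 13, 21796924 to 21800415), a regulator of this layer, had 63.8, 106 and 68.9 FPKM at 4.5 hpf and 0.645, 1.60 and 1.39 FPKM at 3.3 hpf (log2 change 5.18, SE 0.25, adjusted p = 2.84e-09). The transporter gene slc26a1 was at 22.1, 40.4 and 31.5 FPKM against 0.0545, 0 and 0 FPKM. Genes of lipoprotein assembly belonged to this group too: mtp, whose product loads lipid onto apolipoprotein B, had 34.2, 68.8 and 45.3 FPKM at 4.5 hpf and at most 0.0619 FPKM at 3.3 hpf. A separate row named MTTP changed alike (log2 change 5.92), and reads that the rows might share cannot be assigned. The nuclear receptor gene hnf4a had 20.4, 59.5 and 41.9 FPKM at 4.5 hpf and was listed at 0 in every 3.3 hpf library. The factor hnf1ba rose by 3.89 on the log2 scale.

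**Figure D2:**
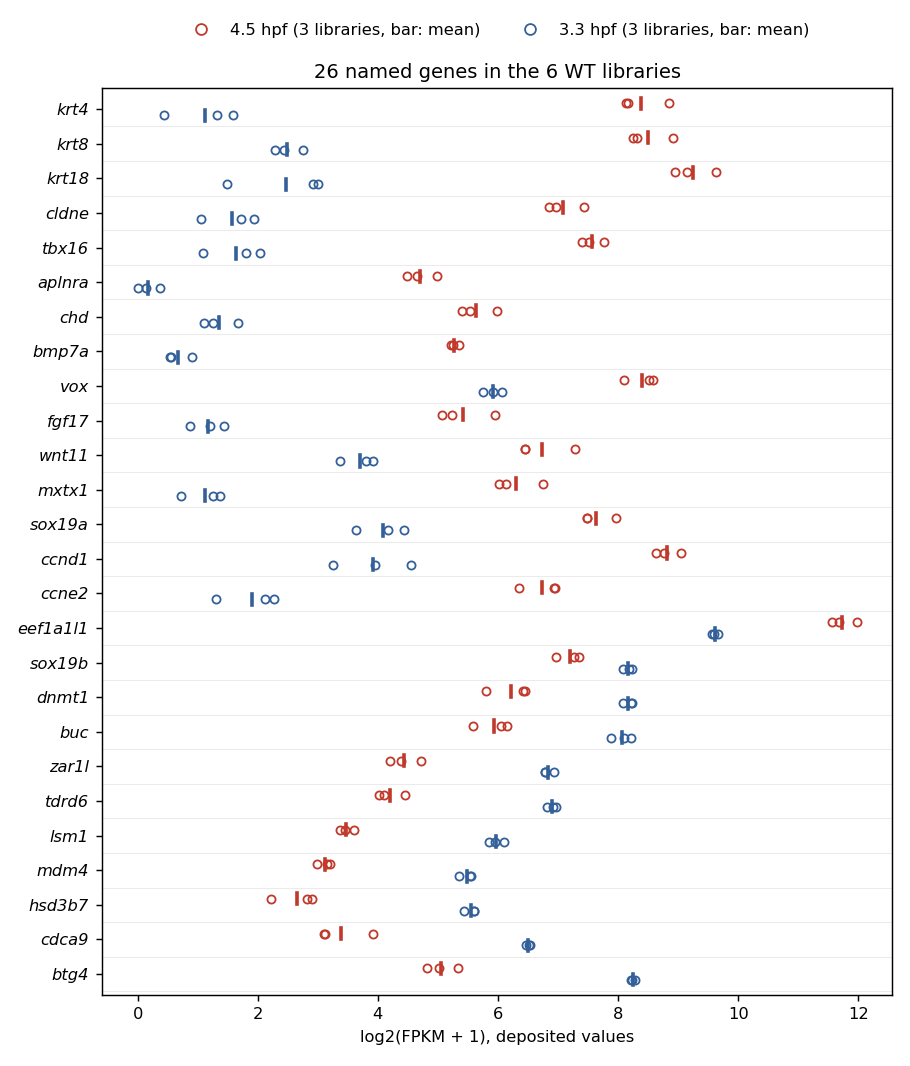
Values of 26 named genes in each of the 6 WT libraries as log2(FPKM + 1), with 4.5 hpf above 3.3 hpf in each row, circles for libraries and bars for means. For example, krt4 lay at 278 to 461 FPKM at 4.5 hpf and 0.358 to 1.99 FPKM at 3.3 hpf, and btg4 at 27.2 to 39.4 FPKM at 4.5 hpf and 297 to 310 FPKM at 3.3 hpf.

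Of 12 genome activators tested, 5 rose and 2 fell (median log2 change 0.58), and 3 rose and 2 fell with spike-in scaling. For all genes tested the shares were 25.4% rising and 21.5% falling, and 11.6% and 31.4% with spike-in scaling. Among the activators, the SoxB1 family showed opposite changes in its members. The maternal gene sox19b (chromosome 7, 27620450 to 27623815) fell, with 163, 124 and 153 FPKM at 4.5 hpf and 271, 300 and 288 FPKM at 3.3 hpf (log2 change -0.97, SE 0.12, adjusted p = 1.44e-05). The zygotic sox19a (chromosome 5, 25868114 to 25870372) rose, with 177, 248 and 178 FPKM against 11.4, 20.5 and 17.01 FPKM (log2 change 3.56, SE 0.24, adjusted p = 6.28e-08). The related sox3 had 124, 219 and 142 FPKM at 4.5 hpf and 28.8, 33.7 and 33.3 FPKM at 3.3 hpf. Averaged over libraries, sox19a stood above sox19b at 4.5 hpf (201 and 146 FPKM), and below it at 3.3 hpf (16.3 and 287 FPKM). These directions were called on all 4 scales. The gene pou5f1 (chromosome 21, 11887949 to 11892809) had 416, 566 and 411 FPKM at 4.5 hpf and 179, 207 and 168 FPKM at 3.3 hpf (log2 change 1.31, adjusted p = 1.37e-06, and 0.78 with spike-in scaling, adjusted p = 0.00494). For nanog (chromosome 24, 12738147 to 12743225) the values were 793, 730 and 798 FPKM against 427, 473 and 436 FPKM (log2 change 0.80, adjusted p = 0.0123). This rise did not hold with spike-in scaling (0.26, adjusted p = 0.56) and its sign turned after quantile normalization (-0.15, adjusted p = 0.723). The levels of nanog and pou5f1 at 10 hpf were 4.18 and 4.83 FPKM.

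The G1 cyclin genes ccnd1 and ccne2 rose, while the cell cycle list as a whole was mixed. Of 50 cell cycle genes tested, 19 rose and 13 fell (median log2 change 0.14), and with spike-in scaling 9 rose and 20 fell. Among all genes tested, 25.4% rose and 21.5% fell, and with spike-in scaling 11.6% rose and 31.4% fell. The gene ccnd1 (chromosome 7, 54575138 to 54584679) encodes cyclin D1, which drives entry into S phase from G1. It had 394, 529 and 432 FPKM at 4.5 hpf and 8.49, 22.4 and 14.6 FPKM at 3.3 hpf (log2 change 4.89, SE 0.28, adjusted p = 1.76e-08). The cyclin E gene ccne2 was at 80.1, 120.8 and 122.7 FPKM against 1.46, 3.85 and 3.36 FPKM (log2 change 4.84, adjusted p = 9.95e-09). The inhibitor gene cdkn1c, the stress response gene gadd45ba and the helicase gene mcm3 rose by 3.34, 2.79 and 3.30 on the log2 scale. The mitotic cyclin genes moved less: ccna2 averaged a log2 change of 0.57 (adjusted p = 7.86e-05, and 0.04 with spike-in scaling, adjusted p = 0.928, and -0.50 after quantile normalization, where it was called lower, adjusted p = 0.00232), and the maternal ccna1 fell by 0.36 (adjusted p = 0.00578).

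Oocyte transcripts fell more often than they rose, and 19 were not called. Of 39 transcripts of oocyte growth, egg polarity and meiosis tested, 18 fell and 2 rose (median log2 change -0.45), and 26 fell and 1 rose with spike-in scaling. Over all genes tested, 21.5% fell and 25.4% rose, and 31.4% fell and 11.6% rose with spike-in scaling. The largest fall among genes eligible for naming was that of btg4 (chromosome 5, 59273721 to 59275804), an adaptor that brings the CCR4-NOT deadenylase to maternal mRNA. It had 31.2, 27.2 and 39.4 FPKM at 4.5 hpf and 299, 297 and 310 FPKM at 3.3 hpf. Transcript levels at 5.3 and 10 hpf were 14.4 and 0.912 FPKM. The translational repressor gene zar1l had 25.2, 19.9 and 17.4 FPKM at 4.5 hpf, against 121, 110 and 109 FPKM at 3.3 hpf (log2 change -2.40, adjusted p = 1.18e-06). An exception was ybx1, an RNA-binding protein gene of oocyte and embryo, which rose by 1.72 on the log2 scale (1.19 with spike-in scaling).

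Germ plasm and piRNA pathway transcripts gave 11 falls and 2 rises among 19 tested (median log2 change -0.82), and 13 falls and no rise with spike-in scaling. The Tudor domain gene tdrd6 (chromosome 20, 35470063 to 35484057) had 20.97, 15.2 and 16.3 FPKM at 4.5 hpf and 120, 124 and 111 FPKM at 3.3 hpf (log2 change -2.70, SE 0.15, adjusted p = 1.22e-08). The gene buc encodes Bucky ball, the organizer of the Balbiani body and germ plasm. It had 69.6, 46.9 and 65.4 FPKM at 4.5 hpf and 272, 234 and 297 FPKM at 3.3 hpf. The genes ca15b, tdrd1 and rgs14a fell by 1.84, 1.22 and 1.02 on the log2 scale. Within this list the fall of tdrd6 was the largest of those named. These 5 genes had the smallest adjusted p of the list among members that passed the rule for naming. That rule asks for an adjusted p under 0.05, at least 5 FPKM in the higher stage and no overlap between stages. The last condition held for 56.9% of all genes tested. Germline markers did not all change alike. The marker vasa was higher, with 72.3, 76.0 and 56.0 FPKM at 4.5 hpf and 44.8, 43.3 and 41.5 FPKM at 3.3 hpf. The markers dazl, nanos3 and dnd were lower in every 4.5 hpf library than in any 3.3 hpf library.

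Other large falls were spread over varied functions. The gene cdca9 (chromosome 12, 24023395 to 24027753), which encodes a Borealin-like subunit of the chromosomal passenger complex, had 7.57, 7.74 and 14.2 FPKM at 4.5 hpf and 91.3, 87.8 and 90.8 FPKM at 3.3 hpf (log2 change -3.12, adjusted p = 1.72e-07). The steroid dehydrogenase family gene hsd3b7 was at 6.51, 3.65 and 6.09 FPKM against 47.8, 42.1 and 47.4 FPKM. The gene sinup, which encodes a nuclear protein of mitosis, had 23.1, 14.0 and 24.4 FPKM at 4.5 hpf and 141, 126 and 146 FPKM at 3.3 hpf. For mylipa (chromosome 19, 26826400 to 26864320), an E3 ubiquitin ligase gene, the 4.5 hpf libraries held 37.4, 28.5 and 30.7 FPKM and the 3.3 hpf libraries 204, 204 and 209 FPKM (log2 change -2.65, SE 0.10, adjusted p = 5.38e-10). The genes STARD7, pik3r3b, pgp, arl4aa, casd1 and ankrd12 fell by 2.48 to 2.6 on the log2 scale. The kinase gene rps6kal also fell (log2 change -3.06, adjusted p = 0.00465), with 1.83, 0.977 and 0.997 FPKM at 4.5 hpf and a wide range at 3.3 hpf, of 22.5, 46.3 and 4.86 FPKM. The maintenance DNA methyltransferase gene dnmt1 (chromosome 3, 55442889 to 55458859) had 86.0, 54.9 and 84.1 FPKM at 4.5 hpf and 295, 269 and 299 FPKM at 3.3 hpf (log2 change -1.95, adjusted p = 9.09e-07). In contrast the de novo methyltransferase gene dnmt3 had 84.4, 91.5 and 79.5 FPKM at 4.5 hpf and 45.1, 48.2 and 45.7 FPKM at 3.3 hpf, a rise that was not called with spike-in scaling (log2 change 0.34, adjusted p = 0.202).

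The machinery that removes mRNA changed unevenly, and its balance depended on the scale, as did that of all genes. Of 51 genes for deadenylation, decapping and decay tested, 25 rose and 11 fell in deposited values (median log2 change 0.32), while 3 rose and 19 fell with spike-in scaling (median -0.18). The same 11 falls were called on all 4 scales. The gene lsm1 (chromosome 8, 46922775 to 46927854) encodes a subunit of the ring that binds deadenylated mRNA before decapping. It had 9.96, 9.31 and 11.1 FPKM at 4.5 hpf and 56.8, 61.0 and 67.5 FPKM at 3.3 hpf (log2 change -2.49, adjusted p = 1.62e-07). The CCR4-NOT subunit gene cnot10 fell by 1.18 on the log2 scale. The antiproliferative gene btg1, of the same family as btg4, rose, with 22.1, 27.1 and 21.01 FPKM at 4.5 hpf and 3.30, 4.32 and 3.63 FPKM at 3.3 hpf (log2 change 2.36, adjusted p = 2.75e-08). The gene yth2, matched to ythdf2, a reader of methylated maternal mRNA, had a log2 change of 1.05 (adjusted p = 5.27e-07), and of 0.53 with spike-in scaling (adjusted p = 0.05).

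The table lists 53 rows for copies of miR-430, which is processed from short hairpins, and 52 of them were at 0 in all 6 libraries. The remaining row, dre-mir-430a-11 (chromosome 4, 28008949 to 28009079), had 5646, 2591 and 3838 FPKM at 4.5 hpf and 6688, 5846 and 6325 FPKM at 3.3 hpf (log2 change -0.71, adjusted p = 0.0273). This fall was not called without library 0 or 2 of 3.3 hpf (adjusted p = 0.0762 and 0.0619) or without library 1 or 2 of 4.5 hpf (adjusted p = 0.138 and 0.0572). Its mean levels over the WT stages were 1262 FPKM at 2.5 hpf, 6286 at 3.3 hpf, 4025 at 4.5 hpf, 1358 at 5.3 hpf and 0 at 10 hpf. Reads of near-identical copies cannot be assigned to one of them, so the row may hold reads of several. Of 12 mRNAs that reporter work in zebrafish placed under miR-430, 6 rose and 4 fell, and 6 rose and 6 fell with spike-in scaling. All genes tested had 25.4% rising and 21.5% falling, and 11.6% and 31.4% with spike-in scaling. The chemokine gene cxcl12a had 7.58, 10.9 and 11.0 FPKM at 4.5 hpf and 0.335, 0.867 and 0.775 FPKM at 3.3 hpf. The receptor gene cxcr7b and the RNA helicase gene ddx5 rose by 1.96 and 2.02 on the log2 scale. The falls, named after their values were seen, were those of dazl, nanos3, tdrd7 and cd82b. The RNA-binding protein gene dazl, which acts in germ cells, had 43.8, 34.3 and 35.7 FPKM at 4.5 hpf and 120.3, 93.5 and 113 FPKM at 3.3 hpf (log2 change -1.50, adjusted p = 8.00e-04). The germ plasm genes nanos3 and tdrd7 and the tetraspanin gene cd82b fell by 0.86, 0.82 and 1.03 on the log2 scale. For each of the 4 the libraries of the stages did not overlap, as for 56.9% of all genes tested.

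Paralog pairs in which the egg is known to supply one copy were mixed, with 6 rises and 5 falls among 18 genes tested (4 rises and 7 falls with spike-in scaling). The shares over all genes tested were 25.4% rising and 21.5% falling, and 11.6% and 31.4% with spike-in scaling. The largest fall in this list was that of zgc:158856, called on all 4 scales. It averaged 34.1 FPKM at 4.5 hpf and 151.8 FPKM at 3.3 hpf (log2 change -2.145, limma adjusted p = 5.48e-06). The chaperone gene npm2a of the egg fell, with 17.3, 18.2 and 15.9 FPKM at 4.5 hpf and 28.8, 27.7 and 33.9 FPKM at 3.3 hpf (log2 change -0.78, adjusted p = 0.00142). Its relative npm1a rose, with 460, 608 and 460 FPKM against 237, 230 and 224 FPKM (log2 change 1.13, adjusted p = 7.90e-06). The linker histone gene h1f0 rose but stayed low, with 1.12, 0.679 and 1.74 FPKM at 4.5 hpf and at most 0.119 FPKM at 3.3 hpf. The histone mRNA binding gene slbp had a log2 change of 0.70 (adjusted p = 0.00392), and of 0.17 with spike-in scaling (adjusted p = 0.627). The TATA-binding protein gene tbp averaged a log2 change of -0.30 (adjusted p = 0.0413), which did not pass in 4 of the 6 fits that left out 1 library (adjusted p up to 0.131). Among forms supplied by the egg, sox19b, ccna1 and npm2a were called lower in deposited values. The genes listed as oocyte forms that were not called were wee2, eif4e1b, cnot6l and zorba, matched to cpeb1b. Their log2 changes in deposited values were -0.38, 0.18, 0.29 and -0.45 (limma adjusted p = 0.161, 0.63, 0.204 and 0.0931). With spike-in scaling wee2 and zorba were called lower (-0.91 and -0.97, adjusted p = 0.0199 and 0.00984). Of the genes listed as embryonic forms, eif4ea, eif4eb and cnot6 were not called in deposited values either (log2 changes 0.06, 0.04 and 0.15). In the same list, sox19a, sox3, npm1a and ccna2 were called higher. The levels of cnot6l and cnot6 did not follow the names oocyte form and embryonic form. They were 3.06 and 82.4 FPKM at 2.5 hpf and 5.97 and 47.9 FPKM at 10 hpf. Rescaled to 1000000, eif4eb and cnot6 were called lower (adjusted p = 0.0248 and 0.00385).

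Histone genes took a larger share of the RNA at 4.5 hpf. Of 51 histone rows tested, 46 rose and none fell by limma (47 and 0 at an unadjusted p under 0.05; median log2 change 1.5), and 37 rose and none fell with spike-in scaling. After quantile normalization 25 rose and 1 fell. Histone rows held 5.18%, 5.81% and 6.28% of summed FPKM, spike-in RNAs left out, at 4.5 hpf and 2.51%, 3.10% and 3.00% at 3.3 hpf, without overlap (two-sided exact permutation p = 0.1, the smallest that 3 against 3 libraries allow). The variant gene h3f3a, which encodes histone H3.3, had 2615, 3368 and 2713 FPKM at 4.5 hpf and 591, 736 and 645 FPKM at 3.3 hpf (log2 change 2.14, adjusted p = 5.11e-08). The linker gene histh1l and the variant gene h2afx rose by 3.61 and 1.76 on the log2 scale. Many histone genes are near-identical copies whose reads cannot be told apart, which makes the value of any 1 row uncertain.

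Of 60 ribosomal protein genes tested, 58 rose and none fell by limma (58 and 0 at an unadjusted p under 0.05; median log2 change 0.99), while 22 rose and none fell with spike-in scaling (median 0.46). Their share of summed FPKM was 1.16%, 1.62% and 1.44% at 4.5 hpf and 0.963%, 1.19% and 1.06% at 3.3 hpf, which overlapped (exact permutation p = 0.2). By 10 hpf it averaged 8.15%. The gene rpl36 had 58.5, 98.9 and 62.0 FPKM at 4.5 hpf and 18.2, 21.3 and 16.5 FPKM at 3.3 hpf (log2 change 1.88, adjusted p = 7.62e-06). For rpl21, which rose by 1.02 in deposited values, the change with spike-in scaling was 0.49 (adjusted p = 0.0894). Ribosome biogenesis genes gave 42 rises and 8 falls among 79 tested in deposited values, and 7 rises and 15 falls with spike-in scaling. The nucleolar gene gnl3 rose on all 4 scales, with 22.5, 40.7 and 36.3 FPKM at 4.5 hpf and 3.50, 4.33 and 5.94 FPKM at 3.3 hpf, and polr1e, a subunit of RNA polymerase I, fell by 1.06. The elongation factor gene eef1a1l1 (chromosome 19, 45287382 to 45303320) had 3003, 4007 and 3264 FPKM at 4.5 hpf and 759, 811 and 774 FPKM at 3.3 hpf (log2 change 2.12, SE 0.16, adjusted p = 1.96e-07). Initiation factors turned with the scale, with 24 rises and 9 falls among 57 in deposited values and 3 rises and 14 falls with spike-in scaling. All genes tested turned alike, with 25.4% rising and 21.5% falling in deposited values and 11.6% and 31.4% with spike-in scaling.

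Splicing factor genes mostly rose in deposited values. Of 58 snRNP, SR and hnRNP genes tested, 53 rose and 2 fell (median log2 change 0.92), and 16 rose and 2 fell with spike-in scaling. The SR protein gene srsf5a had 452, 702 and 474 FPKM at 4.5 hpf and 43.1, 60.1 and 47.0 FPKM at 3.3 hpf (log2 change 3.40, adjusted p = 2.40e-07). The hnRNP gene hnrnpa0b was at 402, 568 and 322 FPKM against 51.6, 61.5 and 59.8 FPKM. Its paralog hnrnpa0a rose by 3.44 from a lower level, and hnrnpd by 1.90 on the log2 scale. The scaffold protein gene hnrnpu rose by 1.15, and by 0.62 with spike-in scaling (adjusted p = 0.0148).

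Nuclear genes for mitochondria fell more often than they rose, as did all genes with spike-in scaling. Of all genes tested, 21.5% fell and 25.4% rose in deposited values, and 31.4% fell and 11.6% rose with spike-in scaling. Of 47 mitochondrial ribosomal protein genes tested, 19 fell and 3 rose (median log2 change -0.29), and 35 fell and 1 rose with spike-in scaling. The gene mrpl48 had 4.75, 3.27 and 2.44 FPKM at 4.5 hpf and 23.5, 26.6 and 18.8 FPKM at 3.3 hpf (log2 change -2.44, adjusted p = 2.45e-05), and mrpl12 fell by 1.61. Of 75 nuclear genes of the respiratory chain and ATP synthase, 23 fell and 11 rose, and 36 fell and 4 rose with spike-in scaling. Their deposited median of -0.05 was close to that of all genes (0.030). The ATP synthase gene atp5h had 13.1, 12.2 and 17.5 FPKM at 4.5 hpf and 49.1, 45.4 and 49.6 FPKM at 3.3 hpf (log2 change -1.70, adjusted p = 3.76e-07). Its level was 231 FPKM at 10 hpf. The ATP synthase genes atp5l and atp5o fell by 1.49 and 1.16 on the log2 scale. The cytochrome c oxidase gene cox7c rose, with 122.8, 194 and 139.6 FPKM at 4.5 hpf and 38.2, 32.8 and 44.9 FPKM at 3.3 hpf. RNA encoded by the mitochondrial genome took 9.87%, 10.5% and 5.07% of summed FPKM at 4.5 hpf and 14.4%, 7.27% and 8.67% at 3.3 hpf, which overlapped (exact permutation p = 0.6).

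**Figure D3:**
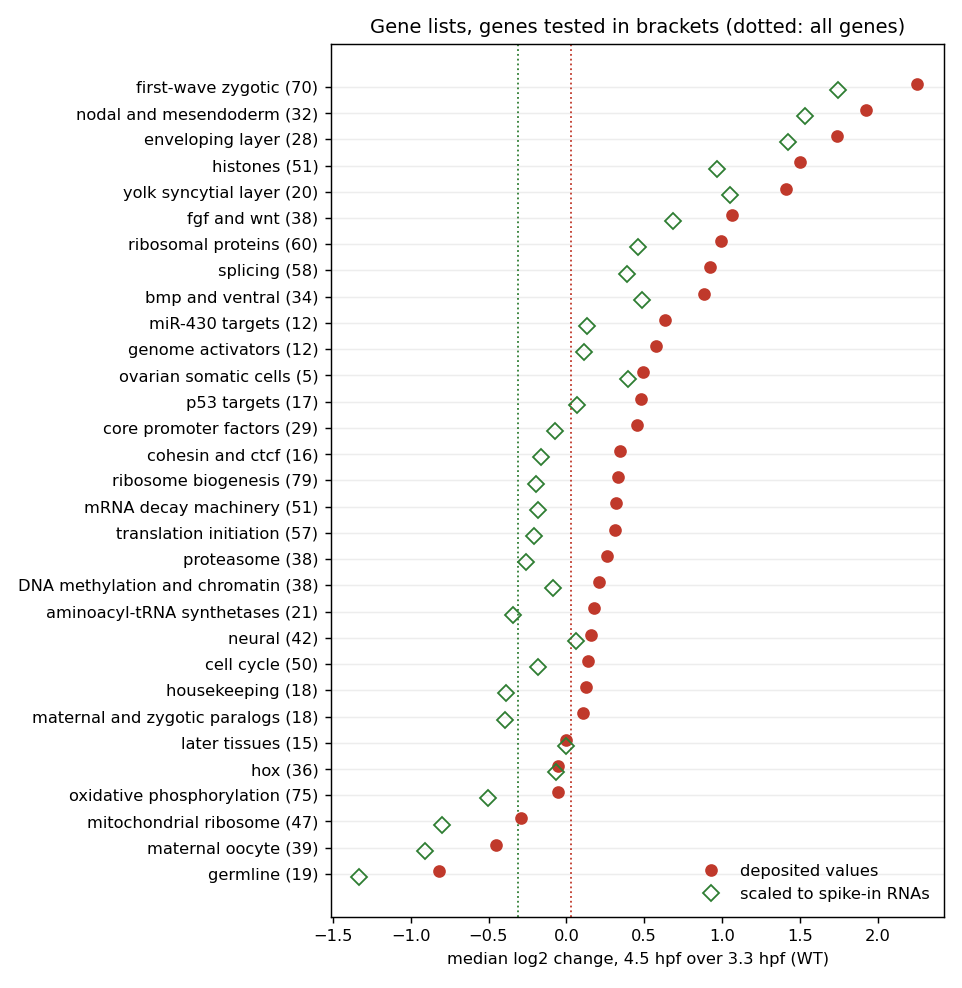
Median log2 change of each gene list, 4.5 hpf over 3.3 hpf in WT, with the number of genes tested in brackets, red circles for deposited values and green diamonds for spike-in scaling. The first-wave list lies farthest right (2.25 and 1.74) and the germline list farthest left (-0.82 and -1.33), and the dotted lines mark all genes (0.030 and -0.31).

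Several housekeeping lists changed sign with the scale, as did the median of all genes (0.030 in deposited values and -0.31 with spike-in scaling). Of all genes tested, 25.4% rose and 21.5% fell in deposited values, and 11.6% rose and 31.4% fell with spike-in scaling. The turn is therefore not particular to these lists. Proteasome genes gave 18 rises and 3 falls among 38 in deposited values, and 1 rise and 8 falls with spike-in scaling. Of 21 aminoacyl-tRNA synthetase genes, 8 rose and 3 fell in deposited values, and 4 fell with spike-in scaling, with sars and larsb lower on both scales. Core promoter factors gave 18 rises and 6 falls among 29 in deposited values, and 1 rise and 8 falls with spike-in scaling. Of 38 DNA methylation and chromatin genes, 19 rose and 6 fell in deposited values, and 4 rose and 10 fell with spike-in scaling. Of 16 cohesin and CTCF genes, 8 rose and 4 fell in deposited values, and 1 rose and 6 fell with spike-in scaling. The riser on both scales was ctcf, the target of one of the morpholinos, with 367, 452 and 378 FPKM at 4.5 hpf and 133, 142 and 136 FPKM at 3.3 hpf (log2 change 1.53, adjusted p = 1.27e-08). The cohesin subunit gene rad21a had 132, 158 and 139 FPKM against 68.2, 74.3 and 76.5 FPKM (log2 change 0.96, and 0.43 with spike-in scaling, adjusted p = 0.117). The cohesin loader gene nipbla and the cohesin gene stag2a fell by 0.57 and 1.19 on the log2 scale.

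Common reference genes differed between the stages by amounts that depended on the scale. The beta-actin gene actb2 had a log2 change of 1.02 (adjusted p = 1.06e-05), and of 0.49 with spike-in scaling (adjusted p = 0.0842). The log2 change of actb1 was 0.60 (adjusted p = 6.42e-04) in deposited values and 0.06 with spike-in scaling (adjusted p = 0.874). After quantile normalization it was -0.65 and called lower (adjusted p = 4.56e-04). The change of gapdh was -0.26 (adjusted p = 0.0446), and the adjusted p exceeded 0.05 in 5 of the 6 fits that left out 1 library. The purine salvage gene hprt1l fell on all 4 scales, with 15.8, 14.8 and 15.8 FPKM at 4.5 hpf and 56.2, 63.3 and 59.2 FPKM at 3.3 hpf, as did the cyclophilin gene ppiab. The gene gapdhs was under 5 FPKM in all 6 libraries and was not called (log2 change -0.06). Of 17 p53 pathway genes tested, 4 rose and 3 fell (median log2 change 0.48), while 2 rose and 4 fell with spike-in scaling (median 0.07). The deposited counts are near the shares of all genes tested, of which 25.4% rose and 21.5% fell. With spike-in scaling 11.6% of all genes rose and 31.4% fell. The p53 inhibitor gene mdm4 had 6.88, 8.23 and 7.92 FPKM at 4.5 hpf and 39.8, 45.2 and 46.0 FPKM at 3.3 hpf (log2 change -2.36, adjusted p = 2.29e-07). The sestrin genes parted, with sesn3 at 28.4, 45.3 and 40.5 FPKM against 0.194, 0.148 and 0.314 FPKM, and sesn2 at 9.40, 9.34 and 10.6 FPKM against 30.9, 25.5 and 34.0 FPKM.

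The level at 2.5 hpf, in libraries outside the contrast, was used to split the genes. Of 4367 genes tested with a mean under 1 FPKM at 2.5 hpf, 1492 rose and 53 fell, and with spike-in scaling 1253 rose and 108 fell. The filter on low values admits such a gene only if it reached 1 FPKM in 3 WT libraries of any stage, so this count is no support for the direction. Of 12981 genes at 1 FPKM or more, 2906 rose and 3673 fell, and with spike-in scaling 754 rose and 5337 fell. Rises among genes at 1 FPKM or more at 2.5 hpf had a median log2 change of 0.73, and rises among genes under 1 FPKM one of 1.55. By number genes already present at 2.5 hpf made up most rises in deposited values, but with spike-in scaling 1253 genes under 1 FPKM rose, more than the 754 above it. Genes under 1 FPKM at 2.5 hpf, without small and mitochondrial RNA, took 2.05%, 2.57% and 2.12% of summed FPKM at 4.5 hpf and 0.621%, 0.553% and 0.915% at 3.3 hpf (exact permutation p = 0.1). Transcripts of the oocyte list took 0.282%, 0.269% and 0.324% at 4.5 hpf and 0.608%, 0.642% and 0.716% at 3.3 hpf (exact permutation p = 0.1). These shares do not depend on a scaling factor of the library.

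**Figure D4:**
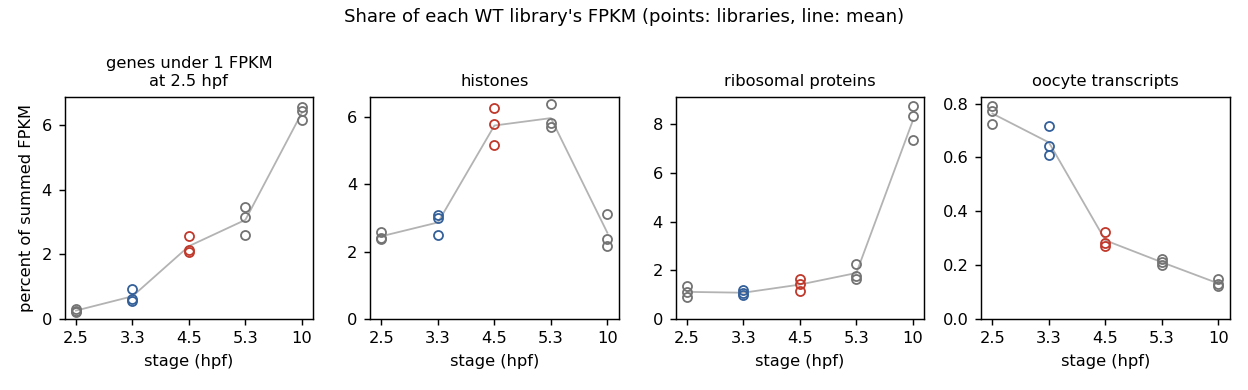
Percent of summed FPKM, spike-in RNAs left out, held by 4 gene groups in each of 15 WT libraries across 5 stages, with points for libraries (4.5 hpf in red, 3.3 hpf in blue) and lines for means. Histones stood at 5.18% to 6.28% at 4.5 hpf and 2.51% to 3.10% at 3.3 hpf, and oocyte transcripts at 0.269% to 0.324% and 0.608% to 0.716%.

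The direction of change was compared with the step between the 2.5 and 5.3 hpf libraries, which share none with this contrast. Of the 4398 rises, 95.4% were also called higher at 5.3 than at 2.5 hpf, as were 34.1% of all genes tested. Of the 3726 falls, 92.6% were called lower, as were 29.1% of all genes. Both steps use deposited values and share the estimate of spread from the fit of 15 WT libraries. The mean log2 level of the spike-in RNAs, relative to WT libraries, was -0.47 at 2.5 hpf and 0.72 at 5.3 hpf. A rise up to that size therefore depends on the scale in both steps, and the agreement was not tested with spike-in scaling. Some rises were passing: plekhf1 averaged 7.57 FPKM at 10 hpf, against 95.4 FPKM at 4.5 hpf. Others were early steps of a longer climb, since krt4 stood at 4526 FPKM at 10 hpf. Among the fallers, atp5h returned by 10 hpf, and btg4 did not.

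**Figure D5:**
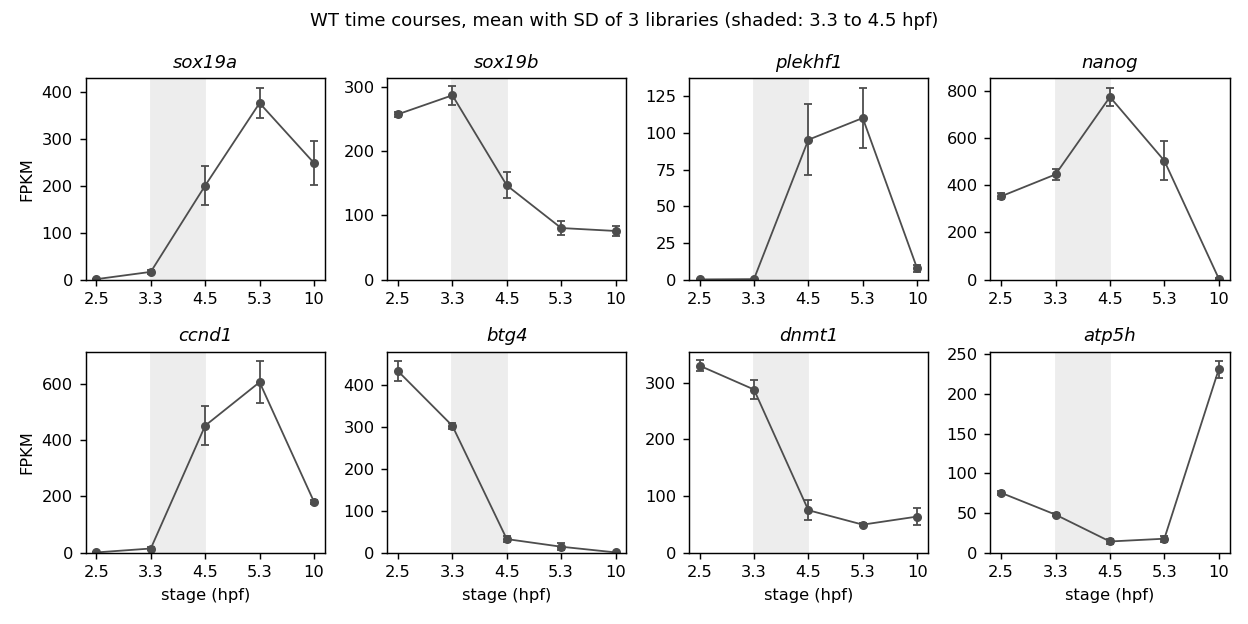
FPKM of 8 genes over 5 WT stages (mean, with the SD of 3 libraries as bars), with the interval from 3.3 to 4.5 hpf shaded. The maternal sox19b falls and sox19a rises in that interval (146 and 201 FPKM at 4.5 hpf, 287 and 16.3 FPKM at 3.3 hpf), nanog peaks at 773 FPKM, and atp5h is back at 231 FPKM by 10 hpf.

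In the injected embryos, whose libraries are others, most genes called in WT had a difference of the same sign, and fewer passed the test. Of the 4398 rises, 93.3% were higher at 4.5 than at 3.3 hpf after the Rad21 MO and 98.1% after the CTCF MO, as were 47.6% and 50.8% of all 17348 genes. By limma 44.0% of these rises were called higher after the Rad21 MO (11.5% of all genes) and 78.6% after the CTCF MO (22.8% of all genes). Their median log2 change was 0.43 in Rad21 MO, 0.77 in CTCF MO and 0.93 in WT embryos. Of the 3726 falls, 95.2% were lower after the Rad21 MO and 98.6% after the CTCF MO, as were 50.7% and 48.0% of all genes. Those called lower were 30.6% after the Rad21 MO (7.38% of all genes) and 73.0% after the CTCF MO (18.3% of all genes). Their median log2 change was -0.38 with the Rad21 MO, -0.66 with the CTCF MO and -0.91 in WT. The genes were called on the WT values, so a larger median in WT is built into the choice, and the difference was not tested. The injected courses were called in another fit, of all 45 libraries, whose estimate of spread includes the WT libraries. These are deposited values, and the log2 spike-in level of the libraries shifted differently between the courses. It was -0.54 to -0.17 at 3.3 hpf and 0.09 to 0.26 at 4.5 hpf in WT. In Rad21 MO embryos it was -0.86 to -0.09 and -0.44 to 0.13, and in CTCF MO embryos -0.52 to -0.12 and -0.47 to -0.13. The value of -0.44 belongs to a library with an intermediate ratio of spike-in RNAs, and it depends on the spike-in mix assigned to that library. The courses were not compared with spike-in scaling. The log2 change of btg4 was -1.04 in Rad21 MO embryos, -1.92 in CTCF MO embryos and -3.19 in WT. At each of these stages the age labels of 1 Rad21 MO library conflict with each other.

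By position, the distal part of chromosome 4 held many of the rises. On its distal part in Zv9, from 28000000 onward, a limit set with this pattern known, 410 of 596 genes tested rose (68.8%) and 13 fell, with a median log2 change of 1.46. With spike-in scaling 345 rose and 27 fell. The other chromosomes had between 18.6% and 28.8% of genes rising. Many genes there are members of repeated families with near-identical copies, and the split of reads among them is uncertain. Rising genes had shorter median spans. The median span was 11132 bases for genes that rose and were under 1 FPKM at 2.5 hpf, 14238 for other rises, 19355 for falls of genes at 1 FPKM or more at 2.5 hpf and 18442 for genes not called.

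Most markers of cells that a whole embryo at these stages should lack were low, and 3 genes of the ovarian list were not. Of 31 markers of later tissues, 27 were under 1 FPKM in all 6 libraries and 14 were at 0, with sums of 8.68 to 9.53 FPKM at 4.5 hpf and 6.81 to 9.71 FPKM at 3.3 hpf. Of 13 genes of ovarian follicle cells, 10 were under 1 FPKM in all 6 libraries, and foxl2 was at 0 in each. That list summed to 578 to 878 FPKM at 4.5 hpf and 67.6 to 86.0 FPKM at 3.3 hpf. It includes krt18, which the enveloping layer also expresses and which had 491 to 789 FPKM at 4.5 hpf and 1.82 to 7.03 FPKM at 3.3 hpf. Most of the sum at 3.3 hpf came from the steroid synthesis genes cyp17a1 and hsd3b1, named here after their values were seen. The gene cyp17a1 had 58.5, 46.7 and 38.4 FPKM at 4.5 hpf and 61.0, 58.8 and 48.6 FPKM at 3.3 hpf and was not called (adjusted p = 0.485). The gene hsd3b1 had 27.9, 41.7 and 23.4 FPKM at 4.5 hpf and 8.45, 20.1 and 11.4 FPKM at 3.3 hpf (ratio of means 2.32, adjusted p = 0.0202 by limma, and a log2 change of 0.70 with spike-in scaling, adjusted p = 0.210). Its rise was not called without library 0 or 2 of 3.3 hpf (adjusted p = 0.0908 and 0.0579) or without library 1 of 4.5 hpf (adjusted p = 0.0896).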

How the data were processed

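Per the submitters' processing notes, reads were processed with TopHat2 2.0.9, Cufflinks 2.2.0 and Cuffdiff on the Zv9 (danRer7) build. The authors deposited a table of FPKM per locus for 45 libraries, which was used here; their tables of comparisons were not used. Columns name stage and treatment, and their numbers were not matched to the letters in the sample titles. Rows of spike-in RNA (92 of 31966) stayed out of the tests. Loci that name several genes (498) were tested but not counted in lists.

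Changes were tested with limma 3.58.1 in R 4.3.3 on log2(FPKM + 1), with all 15 WT libraries in the fit, a mean-variance trend and Benjamini-Hochberg adjustment over 17348 genes with at least 1 FPKM in 3 WT libraries. The courses of injected embryos were tested in a fit of all 45 libraries instead. The test was checked on simulated data without a shift in scale between libraries, so that check does not bear on the choice of scale. P-values measure the spread between pools of embryos, which may be technical. Named genes passed an adjusted p of 0.05 without overlap between stages and averaged 5 FPKM or more in the stage where they were higher. They were the 15 largest rises and 15 largest falls with a single symbol, and up to 5 of each list by adjusted p. Named whatever their values were pou5f1, nanog, sox19b, btg4, the paralogs, and the actb, gapdh and eef1a genes. Not every gene so eligible is described. Members and lists were chosen with earlier results of these data known. List names were matched by symbol and by RefSeq synonyms. Gene spans and coordinates are those of the authors' table; whether starts count from 0 or 1 is not given in the sources used here. Alternatives covered the libraries in the fit, pseudocount, filter, scaling, trend, threshold, replicate number and leaving out each library. Scaling to the spike-in RNAs (35 with at least 5 FPKM in all libraries) and the fits by spike-in mix were chosen after seeing the data.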

Additional observations from a re-analysis of the deposited data

Results flagged for a closer look

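Rows outside the main measurement held a signal. The 35 spike-in RNAs used for scaling were all higher at 4.5 hpf than at 3.3 hpf in the deposited FPKM, with a median log2 difference of 0.522. The same rows separate the 45 libraries into 25 with one ratio of spike-in RNAs (mix X) and 20 with another (mix Y). In 1 Rad21 MO library of 4.5 hpf the ratio lay between these, and that library was counted as mix X. The most different spike-in RNAs were lower in mix X by a log2 difference of -2.15. Column 0 of each stage compared here had mix X and columns 1 and 2 had mix Y, so the mixes are balanced between the stages. The spike-in difference between the stages was 0.60 within mix X (1 library against 1) and 0.50 within mix Y (2 against 2). With the mix as a term of the fit, 4404 genes rose and 3744 fell. With mix Y libraries alone, 3720 rose and 2964 fell.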

How the results depend on the processing

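The scale of the libraries decided the balance of calls. Rescaling to 1000000 gave 2229 higher and 7108 lower genes, rescaling without abundant classes (small RNA, histones, mitochondrial and merged rows) 2545 and 6350, and spike-in scaling, chosen after seeing the data, 2007 higher. Of genes at 1 FPKM or more at 2.5 hpf, these scales called 904, 1143 and 754 higher, and both rescalings called 6938 and 6202 lower. The median was above 0 in 25 of 31 lists in deposited values and in 14 under each of these 3 scales. A 2-fold minimum left 3601 calls, 2030 higher and 1571 lower. Leaving out 1 library gave 6991 to 7625 calls. Whether the column numbers pair the libraries is not known. Deviations correlated at 0.0512, 0.127 and 0.199 between same-numbered columns and at -0.179 to 0.0447 between the others. Each column correlated best with its own number, though weakly. With a replicate block by column number, 8160 genes were called, 4416 higher and 3744 lower.

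Most of the 132 named genes were chosen for a large change or a small adjusted p in the main fit, so keeping their calls is partly built in. Over these genes and their alternatives, 2674 of 2771 values kept direction and side of the threshold. A further 53 lost their call and 16 gained one. The remaining 28 turned sign. These were ccna2 (-0.023 rescaled, not called, and -0.50 after quantile normalization, called lower), and, after quantile normalization, actb2 (-0.068, not called), actb1 (-0.65, called lower, limma adjusted p = 4.56e-04), nanog (-0.15, not called) and cnot6 (-0.24, called lower, adjusted p = 0.032). Rescaled to 1000000, rescaled without abundant classes and with spike-in scaling, in this order, the values were -0.53, -0.42 and -0.47 for eif4eb, -0.46, -0.37 and -0.41 for eif4ea, -0.44, -0.32 and -0.38 for cnot6, -0.40, -0.28 and -0.34 for eif4e1b, and -0.16, -0.075 and -0.11 for cnot6l. Of these values, those of eif4eb rescaled to 1000000 (adjusted p = 0.0248) and of cnot6 under both rescalings (adjusted p = 0.00385 and 0.0105) were called lower. With mix Y libraries alone gapdhs was 0.13. Leaving out 1 library gave -0.088 to 0.13 for eif4eb, -0.024 to 0.16 for eif4ea, -0.35 to 0.080 for gapdhs and -0.035 to 0.34 for eif4e1b. The cause of these turns was not tested.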
